A study of Mus musculus with 2 samples.

Results

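The 10 genes described here, Sesn1, Sesn3, Ddit4, Pik3ip1, Txnip, Tsc22d3, Btg1, Btg2, Tob1 and Zfp36l2, are brakes on growth and division of lymphocytes that FoxO factors or the glucocorticoid receptor are known to switch on. They were taken by symbol from the 31056 rows of the deposited gene table, and each symbol matched 1 row. The list was proposed with their tissue and gate values in these libraries already known, so every difference given for them is a description and none was tested. Expression was read in single sorted CD4+ CD25+ cells, YFP+ and YFP- together, of healthy Mycfl/flFoxp3Cre/WT female mice, in 1 spleen library and 1 lymph node library. All cells carry floxed Myc. Cre is made from 1 copy of the X-linked Foxp3 gene, so Treg cells with and without Myc live side by side in an animal, and the deletion is directed to cells that use the Cre copy. The sources used here do not give the age or number of the mice, nor which cells were YFP+. The cells were also grouped by whether they held at least 1 unique molecular identifier (UMI, 1 captured RNA molecule) of Foxp3, ICRE, Klrg1, Il2ra, Tnfrsf9 or Ly6c1. With 1 library per tissue there is no replicate. All intervals are 95% intervals that cover counting error only, and no p-value was taken from cells.

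In resting T cells FoxO factors sit in the nucleus and keep growth low. T cell receptor, CD28 and IL-2 signals activate PI3K and AKT, which send FoxO out of the nucleus and switch on mTORC1, the kinase that drives protein synthesis. The sestrins Sesn1 and Sesn3 and the stress protein Ddit4 (REDD1) act against mTORC1, Pik3ip1 restrains PI3K itself, and Txnip limits glucose uptake and binds thioredoxin. Tsc22d3 (GILZ) is a classic glucocorticoid-induced gene that restrains NF-kB and AP-1. Btg1, Btg2 and Tob1 are antiproliferative proteins that recruit the CCR4-NOT deadenylase to messenger RNA, and Zfp36l2 binds AU-rich messenger RNAs and promotes their decay. In Treg cells, Myc and mTORC1 support activation and expansion, and resting Treg cells keep FoxO targets such as Klf2 and Ccr7.

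The spleen library held 6840 barcodes and 16868549 UMIs, and 6543 cells with a median of 1935 UMIs passed the filter. The lymph node library held 5079 barcodes and 13324306 UMIs, and 4820 cells with a median of 2031 UMIs passed. The libraries shared 53 barcode sequences. Markers of T cells summed to 4223 CPM, the UMIs of a gene scaled to all UMIs of the cells, in spleen and 4115 CPM in lymph node, and all 5 were detected in both. Foxp3 stood at 108 CPM in spleen and 110.5 CPM in lymph node, with a UMI in 18.9% and 20.9% of cells. Il2ra, which encodes CD25, had a UMI in 30.7% of spleen cells and 25.7% of lymph node cells, so most sorted cells held no UMI of either gene at this depth. The added feature ICRE had 651 UMIs in spleen and 442 in lymph node, EYFP had 2 and 0, and CRE had 0 in both. That ICRE reports the Cre-bearing Foxp3 copy was assumed, because no source used here gives its sequence. RNA of other cell types was present, with Ighm, the B cell antibody chain, in 45.0% of spleen and 53.0% of lymph node cells and haemoglobin Hbb-bs in 0.0459% and 17.7%.

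The level of most members differed little between the tissues. None of the 10 passed 1.5-fold, where 1.32% of the 2507 genes with a mean of at least 50 CPM did. Ddit4 was at 308 CPM (300.1 to 317.0) in spleen and 308 CPM (298 to 317) in lymph node. Tsc22d3 was at 488 CPM (477 to 498) in spleen and 482 CPM (470.0 to 494) in lymph node. The spleen to lymph node ratio was 1.003 for Ddit4 (0.962 to 1.05) and 1.01 for Tsc22d3 (0.979 to 1.05). Txnip was at 419.7 CPM in spleen and 397 CPM in lymph node, Pik3ip1 at 162 and 152 CPM, and Btg2 at 359 and 338 CPM. Btg1 was at 1782 CPM (1762 to 1802) in spleen and 1875 CPM (1851 to 1898) in lymph node, and Zfp36l2 at 712 and 731 CPM. Sesn3 was at 78.0 CPM (73.8 to 82.4) in spleen and 76.6 CPM (71.9 to 81.5) in lymph node, and Tob1 at 33.4 and 33.6 CPM. The median of all genes above the minimum was 101 CPM in both libraries. UMIs of the 3' kit count molecules, not length, so these levels were not scaled by gene length.

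Single cells held few molecules of most members. A Btg1 UMI was found in 96.0% of spleen and 97.2% of lymph node cells, and at most 24 UMIs in 1 cell. Zfp36l2 was found in 75.5% and 78.4%, Tsc22d3 in 61.0% and 61.6%, Txnip in 59.9% and 59.7%, Btg2 in 52.6% and 51.8%, Ddit4 in 46.1% and 47.4%, and Pik3ip1 in 31.9% and 31.4% of spleen and lymph node cells. The least detected members were Sesn3 (17.0% and 17.5%), Sesn1 (9.57% and 14.2%) and Tob1 (7.99% and 8.53%). These shares depend on depth, and no cell without a UMI is shown to lack the transcript. The pseudogenes Btg1-ps1 and Btg1-ps2 had 0 UMIs in both libraries.

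Sesn1 was the member with the widest tissue difference. It stood at 41.8 CPM (38.8 to 45.1, 696 UMIs) in spleen and 61.3 CPM (57.1 to 65.7, 800 UMIs) in lymph node, 1.47-fold lower in spleen (1.32 to 1.62). Spleen values were also lower within each group of cells looked at. In cells with an ICRE and no Foxp3 UMI, Sesn1 was at 40.3 CPM in spleen and 69.5 CPM in lymph node, 1.72-fold lower (1.09 to 2.73). In cells with a Foxp3 and no ICRE UMI it was at 40.7 CPM in spleen and 68.5 CPM in lymph node, 1.68-fold lower (1.38 to 2.06). Cells with an Il2ra UMI gave 36.9 CPM in spleen and 64.9 CPM in lymph node, and cells with a Tnfrsf9 UMI 34.9 and 53.6 CPM. Across all the cell groups and 6 depth classes the spleen value was below the lymph node value, with intervals that held equality in Klrg1 cells (1.34-fold lower, 0.875 to 2.06) and in cells under 1200 UMIs (1.70-fold lower, 0.949 to 3.03). With each cell thinned to 1200 UMIs, a Sesn1 UMI was found in 4.45% of spleen cells (3.95 to 5.01) and 7.09% of lymph node cells (6.37 to 7.88). Between the libraries B cell markers summed to 581 CPM in spleen and 731 CPM in lymph node, with 0 of 5 higher in spleen. Haemoglobin genes summed to 0.961 and 326 CPM, with Hba-a2 at 0 in spleen. Without cells with markers of other types the spleen to lymph node ratio of Sesn1 was 0.690 (0.551 to 0.864), against 0.682 over all cells. Without cells with 3 UMIs of another type it was 0.674, and without cells with 2 genes of another type 0.672. The part of such RNA in the Sesn1 difference was not tested. Tissue and library cannot be told apart here.

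**Figure D1:**
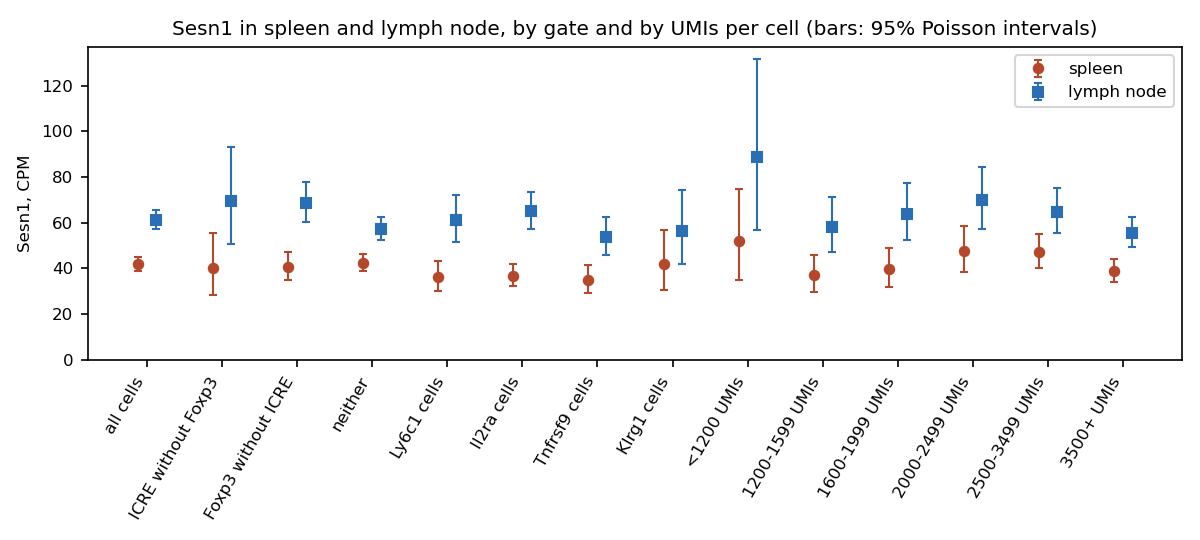
Sesn1 level in CPM in spleen and lymph node for all cells and for subsets of cells, with exact Poisson 95% intervals for counting error. Spleen lies below lymph node in each subset drawn, and all cells stand at 41.8 CPM in spleen and 61.3 CPM in lymph node.

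All 3 genes with a match below are on the plus strand of GRCm38: Sesn1 (ENSMUSG00000038332, chromosome 10, 41809935 to 41908424), Txnip (ENSMUSG00000038393, chromosome 3, 96557957 to 96561883) and Btg1 (ENSMUSG00000036478, chromosome 10, 96617006 to 96622809). Promoter windows, from 250 bases before to 50 after a transcript start, were taken from RefSeq on GRCm38.p6 for 9 members with 12 windows. Zfp36l2 was not matched. The motifs searched on both strands were TGTTTAC, the core that FoxO factors bind, AGAACA and TGTTCT with 3 bases between, the element of the glucocorticoid receptor, and CACGTG, the E-box that Myc binds. The FoxO letters were in 3 of 12 member windows, of Sesn1, Txnip and Btg1, against 3.65% of the 32851 windows of all genes. The E-box was in 0 of 12 member windows, against 7.15% of all windows, and the glucocorticoid motif in 0, against 0.00913%. The 3 windows with the FoxO letters are shown because they are the members' only matches. Capitals mark the match, which in Txnip reads GTAAACA because it lies on the other strand. The windows are Sesn1 at chr10:41810324-41810623, Txnip at chr3:96557707-96558006 and Btg1 at chr10:96616751-96617050, all on the plus strand.
Sesn1: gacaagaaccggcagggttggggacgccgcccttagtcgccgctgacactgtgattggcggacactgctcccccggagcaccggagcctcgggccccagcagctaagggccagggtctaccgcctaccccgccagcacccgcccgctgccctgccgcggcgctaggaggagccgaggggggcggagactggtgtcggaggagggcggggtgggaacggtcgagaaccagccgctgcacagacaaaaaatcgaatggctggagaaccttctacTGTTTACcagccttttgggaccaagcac
Txnip: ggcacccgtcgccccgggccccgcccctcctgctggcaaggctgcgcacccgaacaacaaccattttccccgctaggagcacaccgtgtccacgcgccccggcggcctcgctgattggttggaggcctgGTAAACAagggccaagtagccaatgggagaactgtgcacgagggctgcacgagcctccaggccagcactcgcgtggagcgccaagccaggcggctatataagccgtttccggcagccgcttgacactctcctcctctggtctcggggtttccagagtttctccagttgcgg
Btg1: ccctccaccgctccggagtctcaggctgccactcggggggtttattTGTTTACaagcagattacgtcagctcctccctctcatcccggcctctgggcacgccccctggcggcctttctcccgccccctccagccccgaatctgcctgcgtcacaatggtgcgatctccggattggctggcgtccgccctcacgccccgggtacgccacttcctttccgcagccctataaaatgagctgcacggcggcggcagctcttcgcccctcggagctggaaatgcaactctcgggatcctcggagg
The other members lie on chromosome X (Tsc22d3, ENSMUSG00000031431), 10 (Ddit4, ENSMUSG00000020108), 11 (Pik3ip1, ENSMUSG00000034614, and Tob1, ENSMUSG00000037573), 9 (Sesn3, ENSMUSG00000032009), 1 (Btg2, ENSMUSG00000020423) and 17 (Zfp36l2, ENSMUSG00000045817). The match starts at base 273 of the window in Sesn1, 130 in Txnip and 47 in Btg1. A match is a string of letters and no evidence of binding.

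Members fell into a group whose share of the RNA was lower in cells with more UMIs and a pair that was nearly flat. Txnip was at 812, 713, 587, 486, 404 and 203 CPM in spleen cells of 6 depth classes, which start at 0, 1200, 1600, 2000, 2500 and 3500 UMIs, and at 723, 735, 609, 468, 375 and 197 CPM in the same classes of lymph node cells. Btg1 was at 2935, 2704, 2474, 2096, 1628 and 1072 CPM in spleen and at 3034, 3057, 2713, 2171, 1814 and 1121 CPM in lymph node. Both genes thus stood several-fold apart between the shallowest and the deepest cells. Sesn3 was at 98.6, 86.8, 76.4, 75.4, 72.0 and 77.6 CPM in spleen and at 99.6, 91.3, 68.7, 73.2, 74.4 and 75.4 CPM in lymph node. Sesn1 was at 52.0, 37.1, 39.7, 47.6, 47.1 and 38.7 CPM in spleen and at 88.6, 58.3, 63.9, 69.8, 64.9 and 55.7 CPM in lymph node, with no steady order.

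Cells of at least 3500 UMIs (1102 in spleen, 866 in lymph node) were set against cells under 1600 UMIs (2167 and 1423). These limits were chosen after seeing the values, so the counts are a description. Past 1.5-fold lower in both libraries were 8 of the 10 members, or 7 of the 8 above the 50 CPM minimum. Over all genes above the minimum the share was 11.5%, and the median log2 ratio was -0.09 in spleen and -0.10 in lymph node. Txnip was 3.61-fold lower in deep spleen cells (3.36 to 3.87) and 3.72-fold lower in deep lymph node cells (3.43 to 4.04). Tsc22d3 was 2.78-fold lower in spleen and 3.38-fold lower in lymph node, Pik3ip1 2.55-fold and 3.06-fold, Btg1 2.56-fold and 2.72-fold, and Zfp36l2 2.60-fold and 2.47-fold. Btg2 was 2.18-fold and 1.77-fold lower, Ddit4 2.03-fold and 1.99-fold, and Tob1, below the 50 CPM minimum, 1.54-fold and 1.75-fold. The sestrins were the exceptions. Sesn1 was 1.03-fold lower in spleen (0.820 to 1.30) and 1.12-fold lower in lymph node (0.900 to 1.39), and Sesn3 1.15-fold (0.983 to 1.34) and 1.23-fold lower (1.02 to 1.47).

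The deep cells were also another mix of cells. Myc was 3.31-fold higher in deep than in shallow spleen cells and 3.61-fold higher in lymph node, Foxp3 2.27-fold and 1.98-fold higher, and Klrg1 4.28-fold and 2.78-fold higher. ICRE was 13.9-fold lower in deep spleen cells and 17.4-fold lower in deep lymph node cells, and Ly6c1 5.16-fold and 6.43-fold lower. Ribosomal protein genes took 34.8% of UMIs in deep against 28.1% in shallow spleen cells, and 35.1% against 29.1% in lymph node. Cell state and depth cannot be told apart from these values alone, and depth is given beside each gate below.

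**Figure D2:**
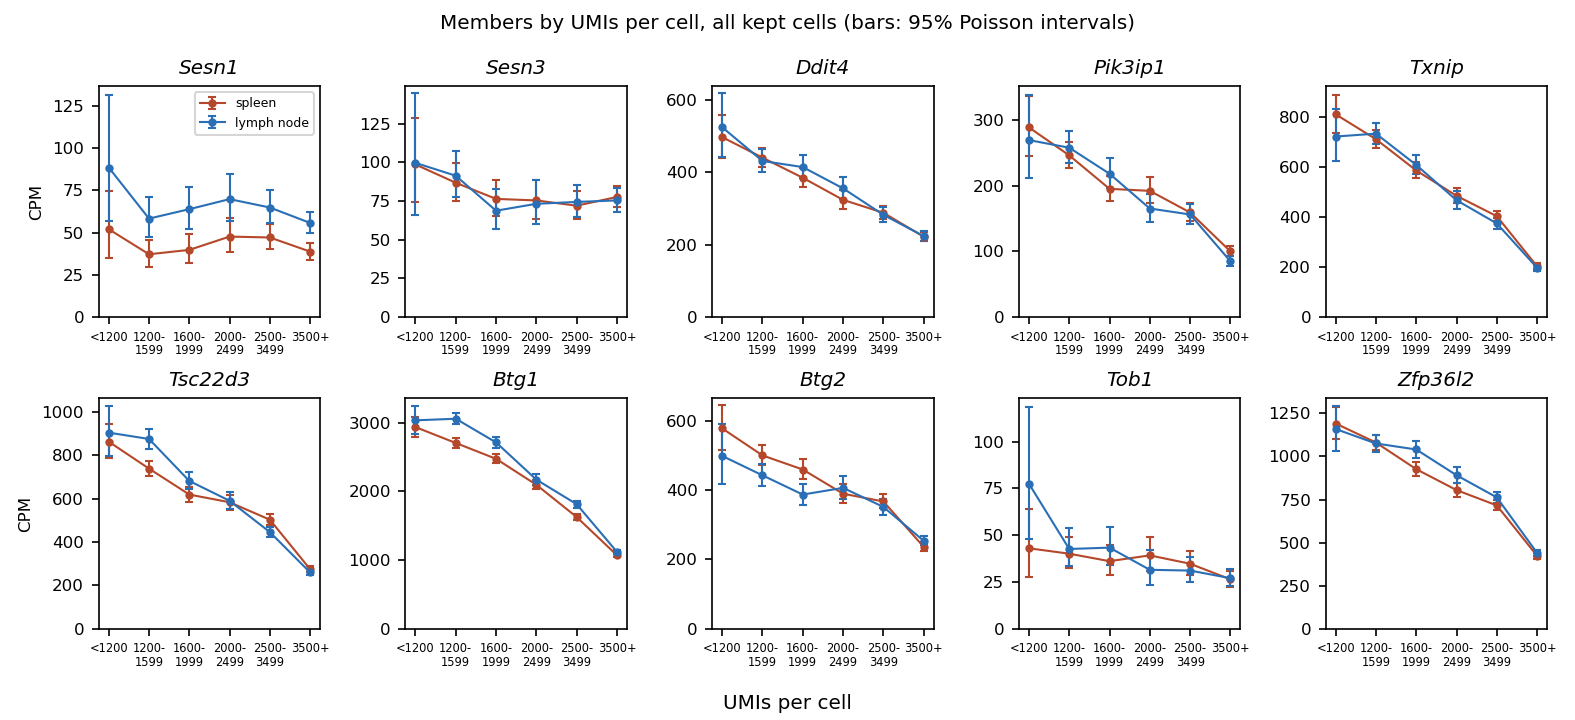
Level of the members in CPM by UMIs per cell, 6 classes from under 1200 to at least 3500 in spleen and lymph node cells, with exact Poisson 95% intervals. Txnip stands at 812 CPM in the shallowest and 203 CPM in the deepest spleen cells, while Sesn1 stands at 52.0 and 38.7 CPM.

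The X-linked comparison set cells with an ICRE and no Foxp3 UMI (505 in spleen, 354 in lymph node) against cells with a Foxp3 and no ICRE UMI (1195 and 982). Under the assumption above it bears on the question the mice were built for, Treg cells of the Cre allele against those of the other allele. The 2 groups are not shown to be the 2 alleles, since Foxp3 cells without an ICRE UMI can include cells whose ICRE was not captured. In lymph node, ICRE was found in 7.34% of cells marked by B cell genes and 7.88% of the others, so background is not separated there. The brakes Ddit4, Tsc22d3, Pik3ip1, Btg1, Txnip and Zfp36l2 were past 1.5-fold higher in the ICRE cells of both libraries. That is 6 of 8 members above the minimum, where 5.28% of 2426 genes did so. The genes were proposed with ICRE and Foxp3 gate values in view, so nothing is read from this count. The ICRE cells were shallower, with a median of 1635 against 2941 UMIs in spleen and 1605.5 against 2859.5 in lymph node, so the depth pattern enters these ratios.

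Btg1 was at 2594 CPM in ICRE cells and 1283 CPM in Foxp3 cells of spleen, 2.02-fold higher (1.93 to 2.12), and at 2967 and 1463 CPM in lymph node, 2.03-fold higher (1.92 to 2.14). Txnip was at 657 and 312 CPM in spleen (2.11-fold higher, 1.91 to 2.32) and at 649 and 287 CPM in lymph node (2.26-fold higher, 2.01 to 2.54). Pik3ip1, the PI3K inhibitor, was at 208 and 109.3 CPM in spleen (1.90-fold higher, 1.60 to 2.25) and at 263 and 108 CPM in lymph node (2.43-fold higher, 2.01 to 2.92). These genes were at least 1.90-fold apart in each library. Tsc22d3 was at 654 and 383 CPM in spleen (1.71-fold higher) and at 766 and 341 CPM in lymph node (2.25-fold higher). Ddit4 was at 398 and 249 CPM in spleen and 456 and 259.8 CPM in lymph node, and Zfp36l2 at 896 and 555 CPM in spleen and 913 and 583 CPM in lymph node. Btg2 was 1.48-fold higher in spleen and 1.35-fold higher in lymph node, short of the threshold in both.

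Sesn1 was the member nearest to equality in both libraries, and Tob1 was past 1.5-fold in lymph node and not in spleen, a difference between tissues that was not tested. Sesn1 was at 40.3 CPM in ICRE cells and 40.7 CPM in Foxp3 cells of spleen, a ratio of 0.992 (0.680 to 1.41), and at 69.5 and 68.5 CPM in lymph node, a ratio of 1.01 (0.721 to 1.40). Sesn3 was at 76.4 and 67.3 CPM in spleen (1.14-fold, 0.866 to 1.47) and at 91.2 and 66.5 CPM in lymph node (1.37-fold, 1.01 to 1.83). Tob1 was at 34.0 and 31.6 CPM in spleen (1.08-fold, 0.708 to 1.59) and at 51.0 and 29.4 CPM in lymph node (1.73-fold higher, 1.13 to 2.59). Myc itself was at 17.0 CPM (9.71 to 27.6, 16 UMIs) in ICRE cells and 49.5 CPM in Foxp3 cells of spleen. In lymph node it was at 4.64 CPM (0.956 to 13.5, only 3 UMIs) in ICRE cells and 40.0 CPM in Foxp3 cells. Myc was also lower in shallow than in deep cells, and the ICRE cells were the shallower ones. Which part of Myc is floxed is not stated in the labels, so a 3' tag of Myc need not be missing after deletion.

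At matched depth the differences were smaller. With Foxp3 cells weighted to have the depth distribution of the ICRE cells, 0 of the members were past 1.5-fold in both libraries, where 1.1% of all genes were. Btg1 was then 1.44-fold higher in spleen and 1.40-fold higher in lymph node, Txnip 1.30-fold and 1.40-fold, Pik3ip1 1.35-fold and 1.85-fold, and Tsc22d3 1.22-fold and 1.52-fold. Zfp36l2 was 1.13-fold and 1.06-fold higher and Btg2 1.03-fold and 1.03-fold, so that these 2 genes kept little of their difference. Among cells of 1500 to 2500 UMIs (258 ICRE and 329 Foxp3 cells in spleen, 177 and 322 in lymph node) again 0 members passed, where 2.17% of all genes did. There the interval lay above equality in both libraries for Btg1 (1.33-fold, 1.23 to 1.44, in spleen and 1.49-fold, 1.37 to 1.62, in lymph node), Txnip (1.24-fold, 1.07 to 1.45, and 1.56-fold, 1.30 to 1.87) and Ddit4 (1.26-fold, 1.03 to 1.53, and 1.55-fold, 1.24 to 1.94). For Tsc22d3 and Pik3ip1 it did so in lymph node (1.36-fold and 1.45-fold) and held equality in spleen (1.10-fold and 1.11-fold). Within the deepest class, Btg1 was at 1650 CPM in ICRE cells and 946 CPM in Foxp3 cells of spleen and at 2031 and 1071 CPM in lymph node, from 23 and 16 ICRE cells.

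The 2 sets of cells differed in state as well. Resting T cell markers summed to 1606 CPM in ICRE cells and 796 CPM in Foxp3 cells of spleen and to 1758 and 676 CPM in lymph node, with 6 of 6 genes higher in both. Treg markers, which include the gate gene Foxp3, summed to 1707 and 2230 CPM in spleen and to 1717 and 2033 CPM in lymph node. Of these, 3 of 6 were higher in ICRE cells in both. Il2ra was 1.63-fold higher in ICRE cells of spleen (1.42 to 1.87) and 2.02-fold higher in lymph node (1.69 to 2.41). Tnfrsf9 was 1.10-fold higher in spleen (0.916 to 1.31) and 1.32-fold higher in lymph node (1.06 to 1.63). Effector Treg markers summed to 148 and 1036 CPM in spleen and to 83.4 and 753 CPM in lymph node, and cycling markers to 66.9 and 449.8 CPM in spleen and 69.5 and 357 CPM in lymph node. B cell markers summed to 308 and 673 CPM in spleen and to 473 and 786 CPM in lymph node, where 4 of 5 genes were higher in ICRE cells although the sum was lower. The part of these states in the differences was not tested. Among cells with no Klrg1 and no Tnfrsf9 UMI, Btg1 was 1.80-fold and Txnip 1.81-fold higher in spleen ICRE cells. In lymph node ICRE cells they were 1.87-fold and 2.08-fold higher. Depth was not matched there, and cells without a UMI of these genes are not shown to lack the transcript. In cells with a Ly6c1 UMI, a mark of resting cells, Btg1 was 1.83-fold higher in spleen and 2.08-fold higher in lymph node and Txnip 1.93-fold and 2.36-fold higher, without matching for depth.

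**Figure D3:**
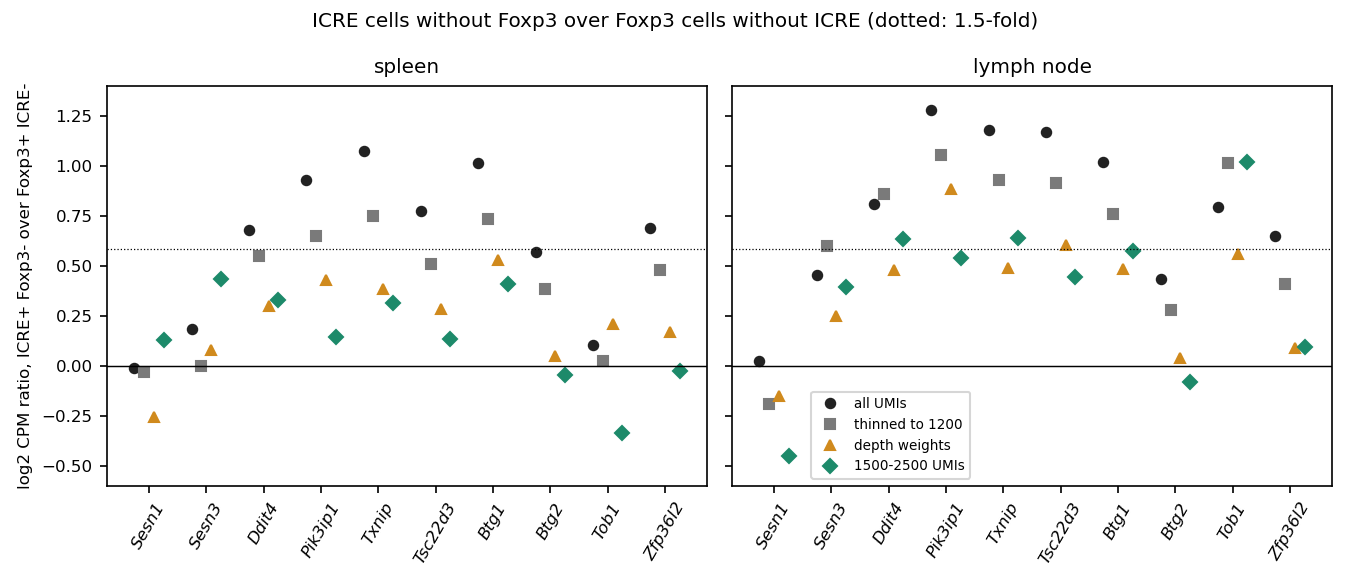
Log2 ratio of the CPM of ICRE cells without Foxp3 over Foxp3 cells without ICRE for each member in spleen and lymph node, as point values with no error bars, for all UMIs, counts thinned to 1200 UMIs per cell, depth weights and cells of 1500 to 2500 UMIs, with a dotted line at 1.5-fold. Over all UMIs Btg1 is 2.02-fold higher in spleen and 2.03-fold higher in lymph node, and in cells of 1500 to 2500 UMIs 1.33-fold and 1.49-fold higher.

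Cells with a Foxp3 UMI had lower levels than the rest for 8 members in each library with the interval below equality. Intervals off equality were not counted over all genes, so nothing is read from such counts in any gate. Only Pik3ip1 was past 1.5-fold lower in both libraries, where 0.582% of genes were. It stood at 109.8 CPM in Foxp3-positive and 182 CPM in Foxp3-negative spleen cells, 1.66-fold lower (1.502 to 1.83), and at 109.9 and 168 CPM in lymph node, 1.53-fold lower (1.37 to 1.71). Btg1 was at 1306 and 1962 CPM in spleen (1.502-fold lower) and at 1473 and 2027 CPM in lymph node (1.38-fold lower). Sesn1 was at 40.4 and 42.4 CPM in spleen and at 70.0 and 58.0 CPM in lymph node, where it was 1.21-fold higher (1.04 to 1.40). Foxp3-positive cells had a median of 2940 UMIs against 1793 in spleen and 2849 against 1846 in lymph node. Effector Treg markers summed to 1023 against 379 CPM in spleen and to 742 against 308 CPM in lymph node, with 5 of 5 higher in both, and the part of that state was not tested. With depth weights Pik3ip1 gave log2 ratios of -0.30 in spleen and -0.20 in lymph node, and Txnip and Btg1 gave 0.09 and -0.08 in spleen and -0.05 and -0.07 in lymph node.

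Cells with an ICRE UMI (549 in spleen, 379 in lymph node) had 7 members whose interval lay above equality in each library, again not counted over all genes. Txnip alone was past 1.5-fold higher in both, where 1.81% of genes were, at 617 CPM in ICRE-positive and 406 CPM in ICRE-negative spleen cells (1.52-fold, 1.40 to 1.65) and at 654 and 382 CPM in lymph node (1.71-fold, 1.55 to 1.88). The positive cells were the shallower ones, at a median of 1663 against 1989.5 UMIs in spleen and 1620 against 2104 in lymph node. Resting T cell markers summed to 1563 against 1103 CPM in spleen and to 1733 against 931 CPM in lymph node, and their part was not tested. With depth weights the Txnip log2 ratio was 0.28 in spleen and 0.31 in lymph node.

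Klrg1 marks terminally differentiated effector Treg cells, and 229 spleen and 223 lymph node cells held a UMI of it. Pik3ip1, Btg1 and Txnip were past 1.5-fold lower in them in both libraries, where 2.43% of genes were. Pik3ip1 was at 57.8 CPM in Klrg1-positive and 169 CPM in Klrg1-negative spleen cells, 2.92-fold lower (2.26 to 3.85), and at 70.8 and 158 CPM in lymph node, 2.23-fold lower (1.74 to 2.91). Btg1 was at 893 and 1840 CPM in spleen (2.06-fold lower) and at 1204 and 1925 CPM in lymph node (1.60-fold lower). Txnip was at 258 and 430.2 CPM in spleen (1.66-fold lower) and at 252 and 408 CPM in lymph node (1.62-fold lower). Pik3ip1 was still lower at matched depth, with log2 ratios of -0.95 in spleen and -0.67 in lymph node, while Txnip gave 0.06 and -0.08. Klrg1-positive cells had a median of 3384 against 1907 UMIs in spleen and 3209 against 1991 in lymph node, and cycling markers summed to 1029 against 162 CPM in spleen and 532 against 211 CPM in lymph node. B cell markers summed to 1041 against 551 CPM in spleen, with 2 of 5 higher, and to 919 against 717 CPM in lymph node, with 1 of 5 higher. Markers of NK or innate lymphoid cells summed to 362 against 142 CPM in spleen, with 2 of 5 higher. Ncr1, Klrb1c and Klre1 were at 0 in the Klrg1-positive spleen cells, so their sum came only from the 2 other genes of the list. In lymph node the markers summed to 357 against 149 CPM, with 4 of 5 higher. The count of 3 members was 0 without cells with any marker UMI of another type and without cells with at least 3 such UMIs, and 3 without cells with at least 2 genes of another type. Ddit4 was at 232 and 313 CPM in spleen and at 316 and 307 CPM in lymph node, and Btg2 at 192 and 369.8 CPM in spleen and at 281 and 342 CPM in lymph node, and whether the tissues differ in this was not tested.

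Tnfrsf9 (4-1BB) is induced by recent T cell receptor signals, and 1134 spleen and 896 lymph node cells held a UMI of it. Tsc22d3, Pik3ip1 and Txnip were past 1.5-fold lower in them in both libraries, where 1.18% of genes were. Tsc22d3 was at 290.3 CPM in Tnfrsf9-positive and 547 CPM in Tnfrsf9-negative spleen cells, 1.88-fold lower (1.77 to 2.01), and at 273 and 548 CPM in lymph node, 2.005-fold lower (1.87 to 2.16). Txnip was at 242 and 473 CPM in spleen, 1.96-fold lower (1.83 to 2.10), and at 235 and 448 CPM in lymph node, 1.90-fold lower (1.76 to 2.06). Pik3ip1 was at 98.5 and 181 CPM in spleen (1.84-fold lower) and at 97.6 and 169 CPM in lymph node (1.73-fold lower). Unlike in the Klrg1 gate, Btg1 was little lower, at 1471 and 1875 CPM in spleen (1.28-fold) and at 1487 and 1997 CPM in lymph node (1.34-fold). Sesn3 was at 85.2 and 75.8 CPM in spleen and at 74.3 and 77.3 CPM in lymph node, with intervals of the ratio that held equality in both.

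At matched depth the 3 genes were still lower. The Tnfrsf9-positive cells had a median of 2434 against 1869 UMIs in spleen and 2459.5 against 1964 in lymph node. Cycling markers summed to 411 against 156 CPM in spleen and to 363 against 192 CPM in lymph node, and their part was not tested. With depth weights the log2 ratios were -0.52 in spleen and -0.66 in lymph node for Tsc22d3, -0.51 and -0.55 for Txnip and -0.49 and -0.48 for Pik3ip1, so none of them passed 1.5-fold in both libraries. Ddit4 then gave 0.01 in spleen and -0.07 in lymph node, and Btg1 0.04 and -0.11. The 3 genes also ran down with the number of Tnfrsf9 UMIs. Tsc22d3 was at 547, 356, 260.4 and 187 CPM in spleen cells with 0, 1, 2 and at least 3 Tnfrsf9 UMIs, and at 548, 358, 212 and 148 CPM in lymph node cells. Txnip was at 473, 300.1, 219 and 146 CPM in spleen and at 448, 298, 223 and 124 CPM in lymph node. Pik3ip1 was at 181, 124, 77.0 and 66.5 CPM in spleen and at 169, 113, 109.7 and 61.2 CPM in lymph node. The order was the same for the 3 genes in both libraries, over median depths of 1869, 2145, 2829.5 and 2921 UMIs in spleen and 1964, 2146, 2532 and 3147 in lymph node.

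Within cells that also held a Foxp3 and no ICRE UMI, Tsc22d3 was at 259.8 CPM in the Tnfrsf9-positive cells without Klrg1 and 424 CPM in those with none of Klrg1, Tnfrsf9 and Ly6c1 in spleen, and at 231 and 370.1 CPM in lymph node. Within cells with an ICRE and no Foxp3 UMI it was at 403 and 661 CPM in spleen and at 498 and 807 CPM in lymph node. Txnip was at 194 and 363 CPM in spleen Foxp3 cells and at 198 and 326 CPM in lymph node Foxp3 cells, and at 551 and 690 CPM and at 524 and 644 CPM in the ICRE cells of spleen and lymph node, with 80 and 60 Tnfrsf9-positive ICRE cells behind these values.

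**Figure D4:**
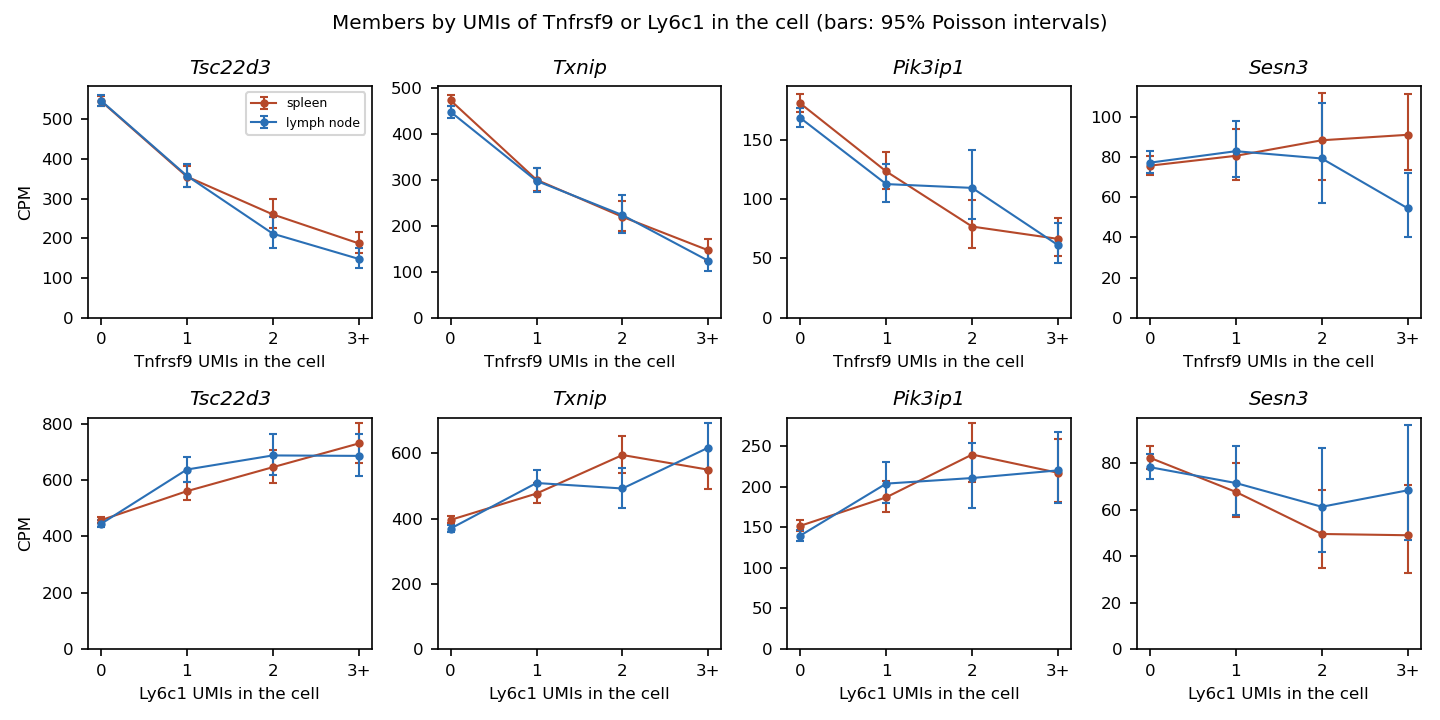
Level of members in CPM in cells with 0, 1, 2 and at least 3 UMIs of Tnfrsf9 or Ly6c1 in spleen and lymph node, with exact Poisson 95% intervals. Tsc22d3 stands at 547 CPM in spleen cells without a Tnfrsf9 UMI and 187 CPM in those with at least 3, and runs the other way with Ly6c1.

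Ly6c1, a surface antigen of resting and naive-like T cells, gave the opposite picture in cells that were slightly shallower, with a median of 1884 against 1949.5 UMIs in spleen and 1799 against 2093 in lymph node. No member was past 1.5-fold higher in both libraries, where 0.17% of genes were. Tsc22d3 was at 608 CPM in Ly6c1-positive and 457 CPM in Ly6c1-negative spleen cells (1.33-fold higher, 1.26 to 1.40) and at 659 and 444 CPM in lymph node (1.48-fold higher, 1.40 to 1.57). Pik3ip1 was at 203 and 152 CPM in spleen and at 209 and 139.6 CPM in lymph node, and Txnip at 515 and 396 CPM in spleen and at 527 and 369 CPM in lymph node. Sesn3 was lower, at 60.5 and 82.4 CPM in spleen (1.36-fold, 1.17 to 1.59) and at 68.5 and 78.3 CPM in lymph node (1.14-fold, 0.963 to 1.36). By number of Ly6c1 UMIs, Tsc22d3 was at 457, 560.5, 646 and 729.9 CPM in spleen and at 444, 637, 687 and 686 CPM in lymph node, while Sesn3 was at 82.4, 67.7, 49.6 and 49.0 CPM in spleen and at 78.3, 71.5, 61.3 and 68.4 CPM in lymph node.

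Cells with an Il2ra UMI, the transcript of CD25, had ratios short of the threshold. No member was past 1.5-fold lower in both libraries, where 0.0416% of genes were. The interval lay below equality for 8 members in spleen and 7 in lymph node, which was not counted over all genes. Pik3ip1 was the widest in spleen, at 123 CPM in Il2ra-positive and 183 CPM in Il2ra-negative cells (1.49-fold lower, 1.36 to 1.62), and was at 133 and 159.6 CPM in lymph node (1.20-fold lower, 1.09 to 1.34). Ddit4 was at 261 and 334 CPM in spleen (1.28-fold lower) and at 262 and 326 CPM in lymph node (1.24-fold lower). The Il2ra-positive cells had a median of 2247 against 1848.5 UMIs in spleen and 2236.5 against 1977.5 in lymph node. Treg markers, which include Il2ra, summed to 2170 against 1330 CPM in spleen and 1978 against 1355 CPM in lymph node, and cycling markers to 279 against 179.7 CPM and 295 against 209 CPM, and their part was not tested. By number of Il2ra UMIs, over 4 classes from 0 to at least 3 with median depths of 1848.5, 2138, 2277 and 2789 UMIs in spleen and 1977.5, 2136, 2597.5 and 2685 in lymph node, Pik3ip1 was at 183, 132, 114 and 101 CPM in spleen and at 159.6, 138, 116 and 135 CPM in lymph node. Ddit4 was at 334, 273, 291 and 178 CPM in spleen and at 326, 282, 242 and 174 CPM in lymph node, and Tsc22d3 at 523, 446, 445 and 304 CPM in spleen and at 516, 422, 361 and 334 CPM in lymph node.

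The gates themselves hold background. Among 102 spleen and 109 lymph node cells with at least 2 of the B cell genes Cd79a, Cd79b and Ms4a1, which should lack Foxp3 transcripts, 9.80% and 11.9% had a Foxp3 UMI, against 19.1% and 21.1% of the other cells. ICRE was found in 1.96% and 7.34% of them, against 8.49% and 7.88%, Tnfrsf9 in 4.90% and 8.26% against 17.5% and 18.8%, and Klrg1 in 1.96% and 4.59% against 3.52% and 4.63%. The B cell marked cells had a median of 2310 UMIs in spleen and 3092 in lymph node. Il2ra was found in 13.7% and 20.2% against 31.0% and 25.9%, and Ly6c1 in 4.90% and 12.8% against 21.2% and 19.3%. The intervals of the marked and the other cells overlapped for Klrg1 in both libraries and for ICRE, Il2ra and Ly6c1 in lymph node, so that free RNA or doublets are not separated from expression in those gates there.

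**Figure D5:**
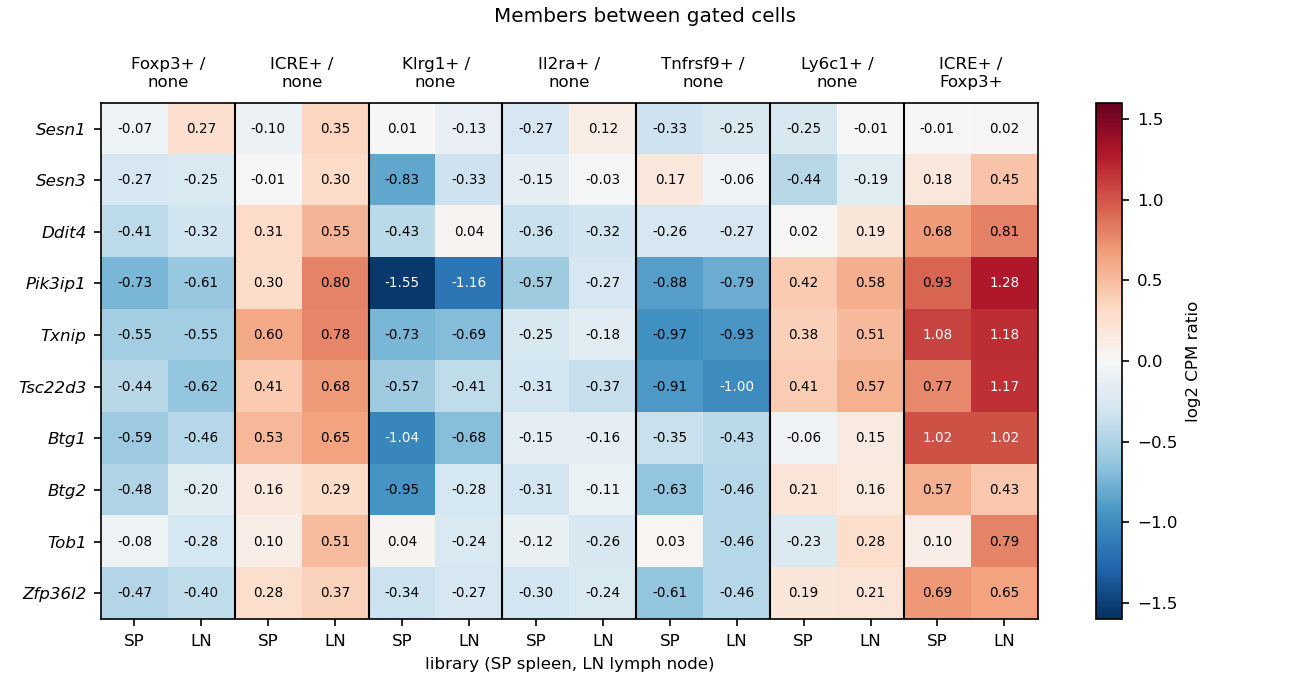
Heat map of the log2 ratio of gate-positive over gate-negative cells for the 10 members across the 6 gates and the ICRE against Foxp3 comparison, each in spleen and lymph node. Most members are below 0 in the Foxp3, Klrg1, Il2ra and Tnfrsf9 gates and above 0 in the ICRE gate, and Sesn1 stays between -0.33 and 0.35.

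How alike the members are was described by Pearson's r over 12 values, the log2 ratios of 6 gates in 2 libraries, which share cells and depth between gates. Tsc22d3 and Txnip had an r of 0.975, Tsc22d3 and Zfp36l2 0.968, and Txnip and Zfp36l2 0.966. Sesn1 reached at most 0.394, with Tob1, and Sesn1 and Sesn3 had an r of 0.122. The 2 sestrins, which share a function against mTORC1, were thus the pair of members with the lowest r. Most of their ratios had intervals that held equality. Sesn1 in Klrg1-positive cells rested on 43 UMIs in spleen and 51 in lymph node. Counting error brings r nearer to 0 for such genes, and its part was not tested. Among 1123 other genes of at least 100 CPM, the most alike to Txnip were Klf2 (0.987), a FoxO target that holds T cells in a resting state, S1pr1 (0.982), the exit receptor of lymph nodes, and Ms4a4b (0.981). Tsc22d3 was nearest to S1pr1 (0.982), Ly6e (0.981) and Txnip (0.975), Zfp36l2 to Lat (0.987), Ly6e (0.980) and S1pr1 (0.978), and Pik3ip1 to Rabac1 (0.977), Arhgap15 (0.976) and Satb1 (0.969). Btg1 was nearest to Foxn3, H2-Q4 and Rbm4b (0.983 each), Btg2 to Acp5 (0.975), Ddit4 to Snrnp48 (0.928) and Sesn3 to B4galnt1 (0.888).

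Within cells thinned to 1200 UMIs, detection of one member given another was read for the 45 pairs. For 35 pairs the share was higher among cells with the other gene in both libraries, and for 3 pairs lower in both. Some of these differences were small, such as 0.0994 points in spleen and 0.612 in lymph node for Btg2 and Tob1. Pairs of other genes were not counted, so nothing is read from the number of pairs. A Txnip UMI was found in 47.9% of spleen cells with and 36.1% of those without a Tsc22d3 UMI, and in 48.3% and 35.6% of lymph node cells. A Zfp36l2 UMI was found in 57.7% of spleen cells with and 47.4% of those without a Btg1 UMI, and in 60.6% and 45.4% of lymph node cells. Sesn3 was found in 9.70% of spleen cells with and 9.04% of those without a Sesn1 UMI, and in 8.95% and 8.77% of lymph node cells, with overlapping intervals of 6.44 to 13.9% and 8.31 to 9.81% in spleen and 6.08 to 12.6% and 7.93 to 9.66% in lymph node.

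Other genes of the pathways were read from 7 lists, counted over members of at least 50 CPM and not matched for depth. Tnfrsf9-positive cells were deeper, at a median of 2434 against 1869 UMIs in spleen and 2459.5 against 1964 in lymph node. The part of depth in their list values was not tested. In Tnfrsf9-positive cells 0 of 7 FoxO factors and targets were higher in either library, with a median log2 ratio of -0.48 in spleen and -0.54 in lymph node, where all genes had 0.12 and 0.10. Klf2 was 1.91-fold lower in both, and S1pr1 1.66-fold lower in spleen and 1.79-fold lower in lymph node. The growth side of mTOR and Myc ran opposite, with 7 of 7 higher in both and medians of 0.62 and 0.59. The nucleolar protein Ncl was 1.77-fold and 1.58-fold higher, the helicase Eif4a1 1.48-fold and 1.51-fold, and the lactate dehydrogenase Ldha 1.53-fold and 1.43-fold. In the glucocorticoid receptor list 5 of 5 members were higher in spleen and 6 of 6 in lymph node, while Tsc22d3 was lower. Its median log2 ratios were 0.37 and 0.21, and 1 member was past 1.5-fold higher in each library. The widest was the chaperone Hsp90aa1 (1.80-fold and 1.97-fold higher), which is also on the stress list. Txn1, the thioredoxin that Txnip binds, was 1.43-fold and 1.54-fold higher, and relatives of the members had 4 of 6 higher in both. PI3K-mTOR core genes had 1 of 4 higher, CCR4-NOT genes 2 of 3 and stress genes 5 of 8 in spleen and 4 of 8 in lymph node. Medians were 0.35 and 0.25 for the relatives, -0.19 and -0.25 for PI3K-mTOR, 0.004 and 0.17 for CCR4-NOT, and 0.07 and -0.04 for stress. The share of all genes that were higher was not counted, so nothing is read from the counts of any list.

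In the ICRE against Foxp3 comparison the FoxO list was higher in 6 of 8 members in spleen and 8 of 8 in lymph node, with medians of 0.64 and 0.88 where all genes had 0.10 and 0.10. Klf2 was 2.32-fold higher in spleen and 2.78-fold higher in lymph node, S1pr1 2.10-fold and 2.61-fold, and Ccr7, the lymph node homing receptor, 2.04-fold and 2.34-fold. The PI3K subunits Pik3r1 (1.91-fold and 1.97-fold) and Pik3cd (1.81-fold and 1.57-fold) were higher too. Growth genes were higher in 1 of 6 in spleen and 0 of 5 in lymph node, with medians of -0.32 and -0.35, and Npm1, a nucleolar protein, was 1.61-fold and 1.80-fold lower. Txn1 was 1.60-fold and 1.57-fold lower. These lists share the depth difference of the 2 sets of cells described above.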

How the data were processed

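Single CD4+ CD25+ cells were profiled with the 10x 3' V2 kit, 1 library from spleen and 1 from lymph node, per the labels' protocols. The authors made the deposited count matrices, whole UMIs per gene and barcode, with Cell Ranger 3.0.1 on mm10, per the submitters' processing notes. No barcode holds fewer than 500 UMIs. The sources used here do not state whether doublets had been removed.

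Barcodes under 500 detected genes or over 10% mitochondrial UMIs were dropped (297 in spleen, 259 in lymph node). No doublet caller was run, and an alternative left out the 6% deepest cells. Counts were summed over the cells of a group and scaled to CPM, with exact Poisson, exact conditional (ratios) and Clopper-Pearson (shares) 95% intervals, in Python 3.11.15 with numpy 2.4.6 and scipy 1.17.1. Figures used matplotlib 3.10.9. No test was made, since each tissue has 1 library. A count of 0 entered a ratio at a floor of 3 counts. A gate is at least 1 raw UMI. A gene counts as past 1.5-fold when it is so in the same direction in both libraries, among genes with a mean of at least 50 CPM over the compared cells.

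For shares and some alternatives cells were thinned to 1200 UMIs, without the 525 spleen and 252 lymph node cells below that depth. Depth weights gave reference cells the depth distribution of the gated cells in 10 bins. Alternatives covered cell filters, thinning, weights of cells, scaling, stricter gates and cells with markers of other types.

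The 10 genes, the lists of pathway and marker genes and the comparisons were chosen with earlier results from these data known. Named genes were all 10 members, the gate genes, Myc and the added features, up to 3 genes per pathway list with the widest mean log2 ratio of equal sign in both libraries, and the 3 genes most alike to each member of at least 50 CPM. Some genes of these lists enter the sums and counts and are not reported here by name. Gene positions are those of GENCODE on GRCm38. The intervals were tried on simulated Poisson counts, the model they assume. Those counts held no added spread between cells or libraries, so nothing about such spread is read from them. Columns of values from other series numbered 0.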

Additional observations from a re-analysis of the deposited data

Results flagged for a closer look

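Btg1 in the Ly6c1 gate went opposite ways in the 2 tissues. Its log2 ratio of Ly6c1-positive over Ly6c1-negative cells was -0.058 in spleen, at 1726 and 1796 CPM, and 0.15 in lymph node, at 2039 and 1840 CPM, and the counting intervals of the ratios lay on opposite sides of equality (0.933 to 0.989 in spleen and 1.07 to 1.14 in lymph node). The difference between the tissues was not tested, since each has 1 library. Median depth was 1884 against 1949.5 UMIs in spleen and 1799 against 2093 in lymph node.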

How the results depend on the processing

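The number of members past 1.5-fold depended on depth and on which cells were kept. Between tissues it was 0, and 1 (Sesn1) with cells thinned to 1200 UMIs, with equal weight per cell, without the 6% deepest cells and in cells with a Foxp3 or ICRE UMI. In the Foxp3 gate it was 1, and 0 with thinned gates, depth weights, without the 6% deepest cells, without Klrg1 and Tnfrsf9 cells and in cells of 1500 to 2500 UMIs, and 3 with a gate of 2 UMIs. In the ICRE gate it was 1, and 0 under both thinnings, depth weights, equal weight per cell, CPM without ribosomal and mitochondrial genes, centring on the median gene, without the 6% deepest cells, without Klrg1 and Tnfrsf9 cells and in cells of 1500 to 2500 UMIs, and 2 with a gate of 2 UMIs. In the Klrg1 gate it was 3, and 1 (Pik3ip1) with depth weights, without the 6% deepest cells and in cells with a Foxp3 or ICRE UMI, and 0 in cells of 1500 to 2500 UMIs. In the Tnfrsf9 gate it was 3, and 0 with thinned gates, depth weights and cells of 1500 to 2500 UMIs, and 5 with a gate of 2 UMIs. In the Ly6c1 gate it was 0, and 1 (Pik3ip1) with a gate of 2 UMIs. In the ICRE against Foxp3 comparison it was 6, and 3 with thinned counts, equal weight per cell and without the 6% deepest cells, 2 with thinned gates, and 0 with depth weights and in cells of 1500 to 2500 UMIs. The cause was not tested.

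Cells with RNA of other types were left out in 3 ways, and the answer depended on which. The planned filter on any marker UMI left out 63.4% of spleen and 67.9% of lymph node cells, since Ighm was in 45.0% and 53.0% and Cst3 in 29.7% and 30.2% of cells, and gave 0 in the Foxp3, ICRE and Klrg1 gates, 1 in the Tnfrsf9 gate and 1 in the ICRE against Foxp3 comparison. A filter on at least 3 UMIs of 1 other type, chosen after seeing the data, left out 16.7% and 22.4%, cells with a median of 3339 and 3232 UMIs against 1793 and 1804 in the others, and gave 0 in the Foxp3, ICRE and Klrg1 gates and 3 in the ICRE against Foxp3 comparison. A filter on at least 2 genes of 1 other type, without Ighm and Cst3, was added after the results of both others had been seen. It left out 2.26% and 4.17%, and gave 1 in the Foxp3 and ICRE gates, 3 in the Klrg1 and Tnfrsf9 gates and 5 in the ICRE against Foxp3 comparison. Its closeness to the counts over all cells is therefore no independent support.

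Over all comparisons and alternatives 73 of these counts stayed within 1.5 times and 44 moved. Of 38 log2 ratios of single members that were past 1.5-fold in a library, 4 of 570 alternative values changed sign and 295 kept the sign but left the counting interval. The sign changes were Btg1 in the Klrg1 gate in spleen to 0.12 and Txnip there in lymph node to 0.17 under the filter on any marker, Txnip in the Klrg1 gate in spleen to 0.059 with depth weights, and Zfp36l2 in the ICRE against Foxp3 comparison in spleen to -0.024 in cells of 1500 to 2500 UMIs. Of 74 ratios within 1.5-fold whose interval lay off equality, 56 of 1095 values changed sign, 11 of them with depth weights, and of 38 ratios whose interval held equality 158 of 555 did. With a minimum of 20 CPM the share of all genes past 1.5-fold stayed within 1.5 times of that at 50 CPM in every comparison. No paired analysis was possible because each tissue has 1 library. Low depth limits Tob1 in both libraries and Sesn1 in spleen, where their mean was below 50 CPM in each gate.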
